A study of Caenorhabditis elegans with 8 samples.

Results

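The 7 genes described here encode P granule proteins of the nematode Caenorhabditis elegans and were taken by name: pgl-1, pgl-3, glh-1, glh-2, glh-3, glh-4 and deps-1. They are 7 of the 20541 genes listed in each of 2 deposited tables. All 7 had a completed strain test in both tables, as had 12954 genes in all. RNA came from whole young adults of the wild-type strain N2 and of HC125, with 4 libraries per strain. The series names the wild type and a Psid-1::gfp strain, in which the promoter of sid-1 drives green fluorescent protein, so HC125 is taken to be the transgenic one. The sources used here give neither the form of the transgene nor any marker carried with it. Each strain had 2 libraries in a paired-end experiment with an unstranded kit and 2 in a single-end experiment with a stranded kit. Values are FPKM (read fragments counted relative to transcript length and to library size). Each strain and experiment has 1 value per gene, which the authors pooled over its libraries, so no spread between libraries can be given.

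P granules are liquid-like bodies of RNA and protein that mark germ cells in this worm and sit on the outside of the nuclear envelope, over nuclear pores, for most of germline development. PGL proteins associate with themselves and form the body of the granule. GLH proteins are DEAD-box RNA helicases related to Vasa of Drosophila and help to hold PGL proteins at the nucleus. DEPS-1 is needed for normal placement of PGL-1 and for RNA interference in the germline. P granules are known to house small RNA pathways that carry silencing through the germline, and the series is titled as a study of heritable silencing at an endogenous locus.

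In whole adults all 7 genes stood above most listed genes. None was called different between HC125 and N2 by the authors' test, which does not show that their levels were equal. In N2 they stood at 33.8 to 263 FPKM in paired-end libraries, at percentiles 75.5 to 97.5 of all listed genes. Single-end values in N2 spanned 19.5 to 265 FPKM, at percentiles 74.2 to 97.0. Listed genes include 5420 (paired-end) and 7375 (single-end) marked as not tested, so these are not percentiles among expressed genes alone. glh-1 and pgl-1 were the most abundant, pgl-3 and deps-1 followed at about the same level, and glh-2, glh-3 and glh-4 were lower.

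**Figure D1:**
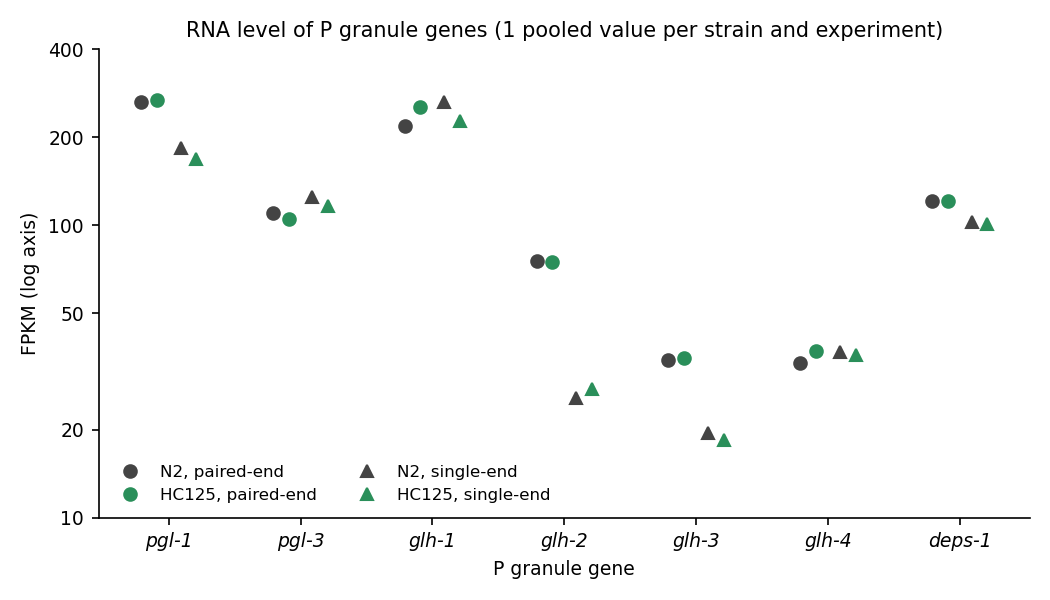
FPKM on a log axis of each P granule gene, with 1 point per strain (N2 grey, HC125 green) and experiment (paired-end circles, single-end triangles); each point is the authors' value pooled over 2 libraries, with no error available. The points of both strains lie close together for every gene, while the N2 value of glh-2 is 75.8 FPKM (paired-end) or 25.8 FPKM (single-end).

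The strain HC125 was first checked by sid-1, the gene whose promoter the transgene carries and which encodes a channel for double-stranded RNA. It measured 31.9 FPKM in N2 against 2.11 in HC125 among paired-end libraries (q = 0.0270 in the authors' deposited table). In single-end libraries it was at 12.9 and 0.818 FPKM (q = 0.0411 in the authors' deposited table). The tissue was checked by marker lists. All 10 germline markers had a value in every column, though the test of rme-2 failed in the single-end table. Their summed level was 2604 FPKM (N2) against 2461 (HC125) for paired-end libraries and 2991 against 2915 for single-end ones. The adult cuticle collagen col-19 measured 1365 FPKM against 1321 (paired-end) and 1561 against 1343 (single-end). The 6 embryo markers summed to at most 14.7 FPKM in any column, and med-1 among them was listed at 0 in 3 of its 4 values.

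pgl-1 encodes the founding PGL protein. It measured 263 FPKM in N2 against 268 in HC125 among paired-end libraries, and 183 against 169 FPKM among single-end libraries. HC125 thus held 102% of the N2 level in the first and 92.2% in the second, so the sign of the strain difference was not shared between experiments. The 95% interval of the ratio ran from 0.560 to 1.85 and from 0.667 to 1.28. These intervals rest on a standard error worked back from the deposited test statistic, which was 0.44 and 0.24 on the log2 scale. In the authors' deposited tables pgl-1 had p = 0.928 and p = 0.49995.

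pgl-3 encodes a relative of PGL-1 that can also form granules. It measured 110 FPKM in N2 against 105 in HC125 (paired-end) and 125 against 117 (single-end). HC125 was the lower strain in both experiments, at 95.4% of N2 (95% interval of the ratio 0.552 to 1.65) and 93.2% (0.664 to 1.31). pgl-3 was the 1 gene of the 7 with a lower value in HC125 in both experiments, although scaling to germline markers turned its paired-end log2 ratio to 0.01, and neither table called it. It lies on the same chromosome as sid-1 and 361361 bp to its left by the files' positions.

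glh-1 encodes the Vasa-related helicase with the best known role in placing PGL proteins. It measured 219 FPKM in N2 against 253 in HC125 among paired-end libraries, and 265 against 227 FPKM among single-end libraries. It had the largest strain ratio of the 7 in each experiment, upward to 116% of N2 in the first and downward to 85.9% in the second. The 95% intervals of the ratio were 0.630 to 2.13 and 0.610 to 1.21, and both include 1. Its p was 0.490 and 0.2165 in the authors' deposited tables, the lowest of the 7 in each. The single-end minus the paired-end log2 ratio was -0.43 ± 0.51 (implied SE), and a z test over 12921 genes did not call it (adjusted p = 1.00).

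glh-2, a close paralogue of glh-1, measured 75.8 FPKM in N2 against 75.2 in HC125 (paired-end) and 25.8 against 27.6 (single-end). The ratio was 0.993 (95% interval 0.576 to 1.71) and 1.07 (0.849 to 1.36). By the test statistic its single-end ratio was the most precise of the 7, with an implied standard error of 0.17 on the log2 scale. Errors worked back from the deposited p, chosen after seeing the data, hardly set it apart, at 0.17 (glh-2) to 0.19 (glh-3).

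glh-3 encodes a further GLH helicase of the germline. It measured 34.6 FPKM in N2 against 35.2 in HC125 (paired-end) and 19.5 against 18.4 (single-end). The ratio was 1.02 (95% interval 0.589 to 1.75) and 0.943 (0.655 to 1.36). glh-4, whose annotated protein is the longest of the 7 at 1156 residues, measured 33.8 FPKM against 37.2 (paired-end) and 36.8 against 36.2 (single-end). Its ratio was 1.10 (95% interval 0.644 to 1.88) and 0.983 (0.697 to 1.39).

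deps-1 encodes a protein that acts upstream of PGL-1 placement and is known for defective P granules and RNA interference when mutated. It was at 121 FPKM in both strains in paired-end libraries, and 102.476 against 100.996 FPKM among single-end ones. Its ratio of 1.00 (95% interval 0.577 to 1.74) was the nearest to 1 of the 7 in paired-end libraries. With the error worked back from the deposited p instead, chosen after seeing the data, the interval narrowed to 0.715 to 1.40. In single-end libraries the ratio was 0.986 (95% interval 0.699 to 1.39).

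**Figure D2:**
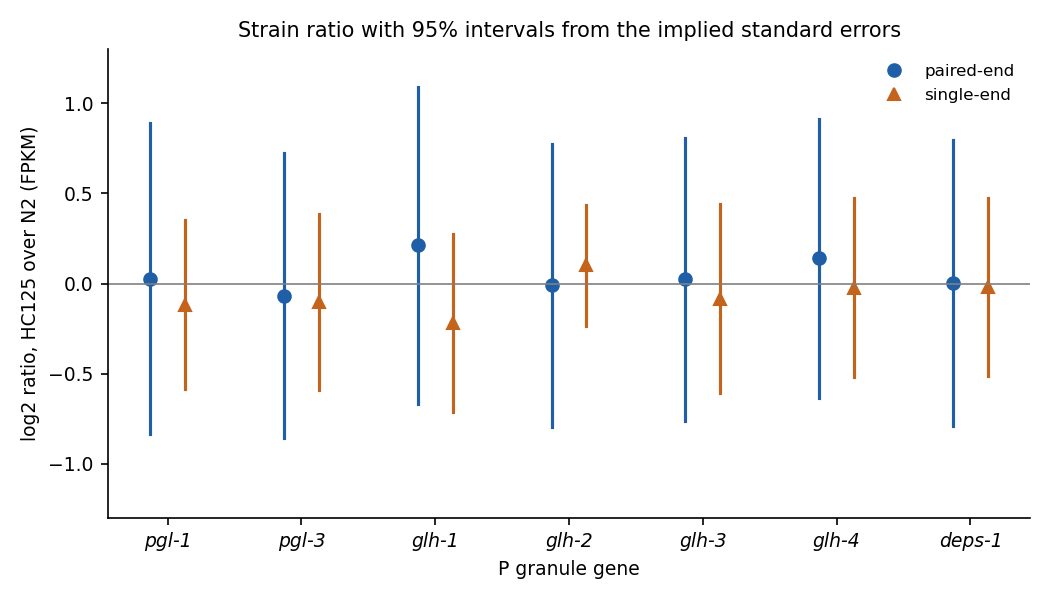
log2 of the FPKM ratio of HC125 over N2 for each P granule gene, in the paired-end (blue circles) and single-end (orange triangles) experiments, with bars for its 95% interval, worked back from the deposited test statistic. All 14 intervals cross 0, and glh-1 has the largest distance between its points, 0.21 and -0.22.

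None of the 7 genes reached q = 0.05 in either of the authors' tables. The background was low: 0.212% of 15114 tested genes were called for paired-end and 0.122% of 13150 for single-end libraries. Over the 12954 genes tested in both, 0.0386% were called in both in the same direction. Before adjustment, too, none of the 7 had p below 0.05 in the authors' deposited tables, against 1.28% of tested genes for paired-end and 2.39% for single-end libraries. A count of 0 among 7 genes is close to these shares and says nothing particular about P granule genes. The deposited p-values rest on the authors' model of variation between libraries, whose settings are not given. That variation may be technical, since no label says that replicates came from separate cultures.

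Joining both experiments narrowed the intervals. The inverse-variance mean of both log2 ratios gave HC125 levels between 0.922 (glh-1) and 1.06 (glh-2) of N2. The 95% intervals, from the test-statistic errors, reached down to 0.685 for glh-1 and up to 1.36 for glh-4. That of glh-2 was narrower, at 0.854 to 1.31, which rests on its smaller single-end error by the test statistic. Changes within a gene's own interval could not be seen at this precision. A Stouffer combination of the deposited p-values called 0.27% of genes at an adjusted p of 0.05, none of them among the 7, whose lowest unadjusted combined p was 0.559 (pgl-3). limma on the 2 log2(FPKM + 1) ratios per gene called 0.0386% of genes and none of the 7, with adjusted p from 0.802 to 0.994. Its standard errors were 0.06 to 0.11. They come from the spread between the 2 ratios, moderated over genes of like level, and not from the authors' test. They therefore do not narrow the intervals above. The z test of the difference between experiments called 0.00774% of 12921 genes and none of the 7, whose unadjusted p ran from 0.401 to 0.961.

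On the log2(FPKM + 1) scale the median strain ratio of the 7 genes was 0.02 for paired-end and -0.08 for single-end libraries. Over all tested genes the medians were -0.03 and -0.04. In paired-end libraries 5 of the 7 genes had a higher value in HC125, and in single-end libraries 1 of the 7, glh-2. These counts are relative to the deposited scaling: centring on the median of genes at 1 FPKM or more in either strain turned the sign of glh-2 in the first and of glh-4 and deps-1 in the second. The summed level of the 7 was 857 FPKM in N2 and 896 FPKM in HC125, then 758 and 696 FPKM. Set against the summed germline markers, the 7 came to 32.9% in N2 and 36.4% in HC125 in paired-end libraries, and to 25.3% and 23.9% in single-end libraries. In whole worms fewer germ cells and less RNA per germ cell cannot be told apart.

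In single-end libraries 6 of the 7 P granule genes had the lower value in HC125, as had 7885 of 13150 tested genes, while most sperm markers had higher ones. The 7 sperm markers summed to 23.2 FPKM in N2 and 42.3 FPKM in HC125, with 5 of 7 higher and spe-4 and spe-26 lower. spe-4, spe-11 and spe-26 were near the floor in N2 there, at 0.895, 0.552 and 0.501 FPKM. In paired-end libraries the 7 sperm markers summed to 158 and 161 FPKM, with 2 of 7 higher. None was called in either table, although msp-142 had p = 0.0208 by the authors' deposited table for single-end libraries. Their part in the values of the P granule genes was not tested. Among 10 somatic markers the myosin gene unc-54 was called higher in single-end libraries, at 125 and 341 FPKM. The summed level of the 10 was 1820 and 1828 FPKM. Most of that sum was col-19, which was lower in HC125, at 1561 and 1343 FPKM, so the near-equal sums hide opposite differences among these markers. The cuticle collagen dpy-7 among them was not called, at 1.21 FPKM in N2 against 3.40 in HC125 (paired-end, p = 0.0092) and 4.19 against 1.99 (single-end, p = 0.0466) in the authors' deposited tables.

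FPKM is scaled to transcript length, so levels can be set side by side between genes within a column. By the mean of the 4 pooled values the order from the highest was glh-1 (241 FPKM), pgl-1 (221), pgl-3 (114), deps-1 (111), glh-2 (51.1), glh-4 (36.0) and glh-3 (26.9). Of the 21 pairs among the 7 genes, 17 kept the same order in all 4 columns. The 4 pairs that did not were all neighbours in that order. pgl-1 stood above glh-1 in paired-end libraries, at 1.20 times its level in N2 and 1.06 times in HC125, and below it in single-end libraries, at 0.692 and 0.743 times. deps-1 stood at 1.10 and 1.15 times pgl-3, then at 0.818 and 0.866 times. glh-4 and glh-3 were nearly level in paired-end libraries, at a quotient of 0.976 in N2 and 1.06 in HC125, while glh-4 was at 1.88 and 1.96 times glh-3 in single-end libraries. Without a spread between libraries no test of these orders can be made.

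The make-up of the GLH family was alike in both strains and unlike between experiments. glh-1 gave 60.3% of the summed GLH level in N2 and 63.2% in HC125 in paired-end libraries, and 76.4% and 73.5% in single-end libraries. glh-2 gave 20.9% and 18.8%, then 7.42% and 8.92%. glh-3 gave 9.54% and 8.77%, then 5.62% and 5.95%, and glh-4 gave 9.31% and 9.28%, then 10.6% and 11.7%. glh-2 was at 2.24 and 2.02 times glh-4 in paired-end libraries and at 0.701 and 0.764 times glh-4 in single-end libraries. The GLH genes are paralogues, and reads that match more than 1 of them could be split among them. The sources used here do not say how such reads were counted, so the split within the family is uncertain.

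**Figure D3:**
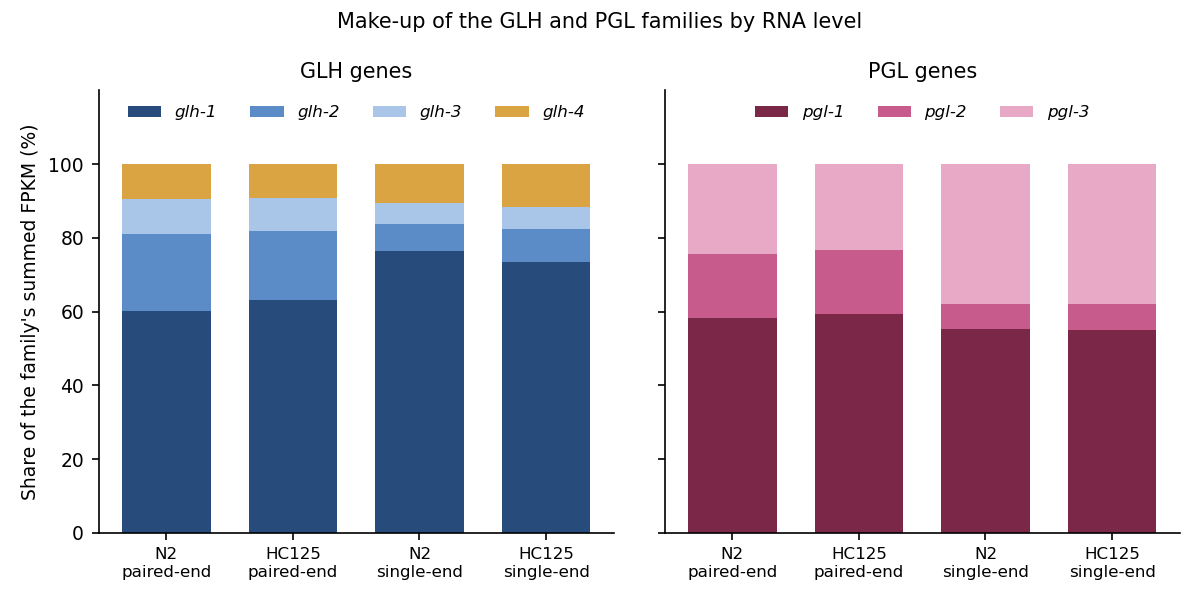
Stacked bars of each gene's share, in percent, of the summed FPKM of its family, for GLH genes (left) and PGL genes (right), with 1 bar per strain and experiment. Within an experiment the N2 and HC125 bars are alike, while glh-2 takes 20.9% of the GLH sum in the N2 bar of the paired-end experiment and 7.42% in that of the other, and pgl-2 takes 17.1% and 6.73% of the PGL sum.

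The PGL family showed the same kind of step in pgl-2, the third PGL gene, which is not among the 7. pgl-2 measured 77.2 FPKM in N2 against 77.3 in HC125 (paired-end) and 22.3 against 22.2 (single-end). Its share of the summed PGL level was 17.1% and 17.2%, then 6.73% and 7.21%. pgl-1 held 58.4% and 59.5%, then 55.4% and 54.9%, and pgl-3 held 24.5% and 23.4%, then 37.9% and 37.9%. pgl-1 was thus at 2.38 and 2.55 times pgl-3 in paired-end libraries and at 1.46 and 1.45 times in single-end libraries.

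Both tables were scaled separately, so a level set across them was read against all genes. Over 10645 genes at 1 FPKM or more in all 4 columns, the log2 of the single-end over the paired-end N2 value had a median of -0.54, with the central 95% from -2.42 to 1.55. glh-2 stood at -1.56 (percentile 12.6 of those genes) and pgl-2 at -1.79 (percentile 8.19), low but within that range. glh-1 stood at 0.28, pgl-3 at 0.18 and glh-4 at 0.12, at percentiles 79.4, 76.9 and 75.3. deps-1 (-0.24), pgl-1 (-0.52) and glh-3 (-0.83) lay nearer to the median. In HC125, where the median was -0.54, the values of glh-2 and pgl-2 were -1.44 and -1.80. glh-1 and glh-4 were below 0 there, at -0.15 and -0.04 (percentiles 65.6 and 69.9), while pgl-3 was at 0.15. The remaining values in HC125 were -0.26 (deps-1), -0.66 (pgl-1) and -0.93 (glh-3). Marker levels differed between the tables as well: the 7 sperm markers summed to 158 FPKM in N2 for paired-end but 23.2 FPKM for single-end libraries, with spe-11 among them at 19.5 and 0.552 FPKM. The 10 germline markers summed to 2604 and 2991 FPKM in N2. The experiments differ in libraries, kit, read layout and strand at once, and no label says whether both used the same animals. Which of these, or a difference between the animals, goes with the steps cannot be told apart.

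**Figure D4:**
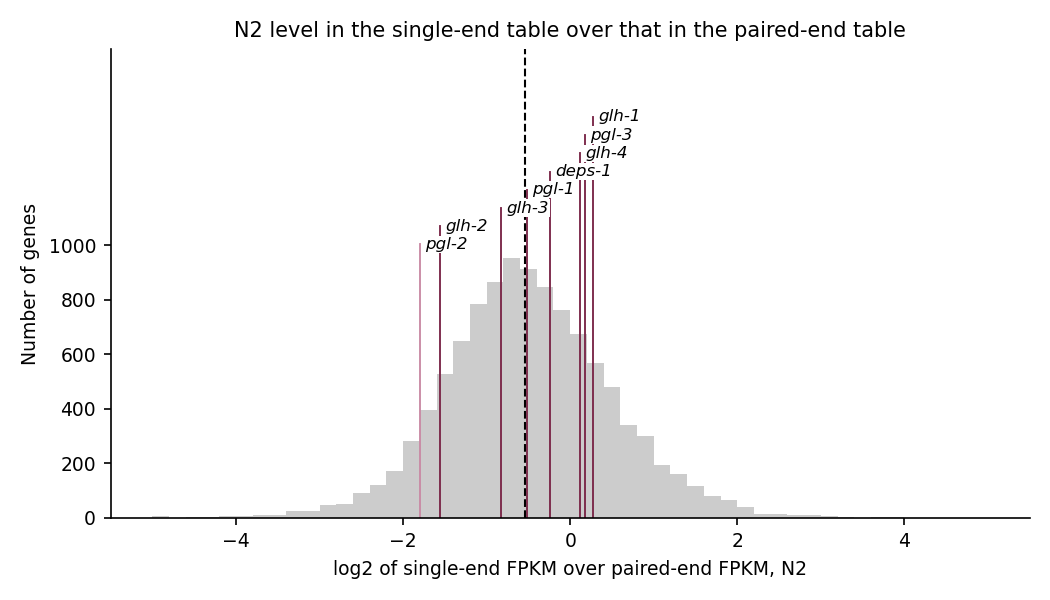
Histogram of 10645 genes by the log2 of the single-end over the paired-end FPKM in N2, with the median as a dashed line and a labelled vertical line for each P granule gene and for pgl-2. glh-2 (-1.56) and pgl-2 (-1.79) lie left of the median of -0.54, and glh-1, pgl-3 and glh-4 lie right of it, between 0.12 and 0.28.

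In the genome 5 of the 7 genes lie on chromosome I, which holds 14.2% of all listed genes. The files place deps-1 (WBGene00022034) at I:506477-510837, glh-4 (WBGene00001601) at I:3726011-3731224, glh-3 (WBGene00001600) at I:5792324-5795114, glh-2 (WBGene00001599) at I:6514021-6517507 and glh-1 (WBGene00001598) at I:6854688-6857537. pgl-3 (WBGene00003994) is at V:4755985-4758608 and pgl-1 (WBGene00003992) at IV:6973964-6977318. The build of these positions, counted here from 1, is unstated, but each span overlaps its gene in the WBcel235 annotation. That annotation puts pgl-1 and glh-3 on the minus strand and the other 5 on the plus strand. The longest annotated transcripts have 6 exons (glh-3) to 12 exons (deps-1) and a spliced length of 2044 nt (deps-1) to 3747 nt (glh-4).

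The span of deps-1 in the files is shared with Y65B4BL.7, a gene on the opposite strand whose annotated end overlaps that of deps-1 by 109 bp. Y65B4BL.7 measured 5.64 FPKM in N2 against 7.16 in HC125 (paired-end) and 8.61 against 11.3 (single-end), far below deps-1 in each column. The paired-end libraries carried no strand, so reads from the overlap cannot be assigned there. The other 6 genes share their span with no listed gene. By that annotation 15 genes were nearest to or overlapping the 7 genes. Of these, 14 were tested for paired-end and 12 for single-end libraries. None was called, against 0.212% and 0.122% of all tested genes, so this count says nothing particular about the neighbours. him-3, which encodes a meiotic chromosome axis protein and lies 189 bp from pgl-1 on the other strand, measured 158 FPKM in N2 against 162 in HC125 (paired-end) and 138 against 136 (single-end). sacy-1, a DEAD-box helicase gene 337 bp to the left of glh-1, measured 59.6 FPKM against 60.7 (paired-end) and 22.7 against 23.8 (single-end). hil-4, a linker histone gene 525 bp to the left of pgl-3, measured 181 FPKM against 164 (paired-end) and 171 against 192 (single-end). C55B7.11, 97 bp from glh-2 on the other strand, measured 53.6 FPKM in N2 against 51.3 in HC125 (paired-end) and 54.6 against 56.3 (single-end). che-1, a neuronal transcription factor gene 21 bp to the right of glh-2, was nearly silent, at 0.0435 to 0.0761 FPKM in N2. The others were nhr-249 beside pgl-1, C18G1.3 beside pgl-3, T21G5.6 beside glh-1, cpb-3 and mtk-1 beside glh-3, lin-59 and T12F5.2 beside glh-4, and Y65B4BL.4 and acs-13 beside deps-1.

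Among other genes of the P granule pathway none was called either. Over all tested genes the called shares were 0.212% (paired-end) and 0.122% (single-end), so this count says nothing particular about the pathway. Of 76 genes in 7 lists, 75 were found and tested in both tables, and the authors' deposited tables gave as lowest p 0.339 (npp-11, paired-end) and 0.101 (mex-3, single-end). Their FPKM ratios spanned 0.828 to 1.22 (paired-end) and 0.743 to 1.22 (single-end). The median on the log2(FPKM + 1) scale was -0.05 in both. Counts of higher and lower values were 20 and 55, then 24 and 51, where all tested genes had 6298 higher and 8816 lower, then 5265 and 7885.

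**Figure D5:**
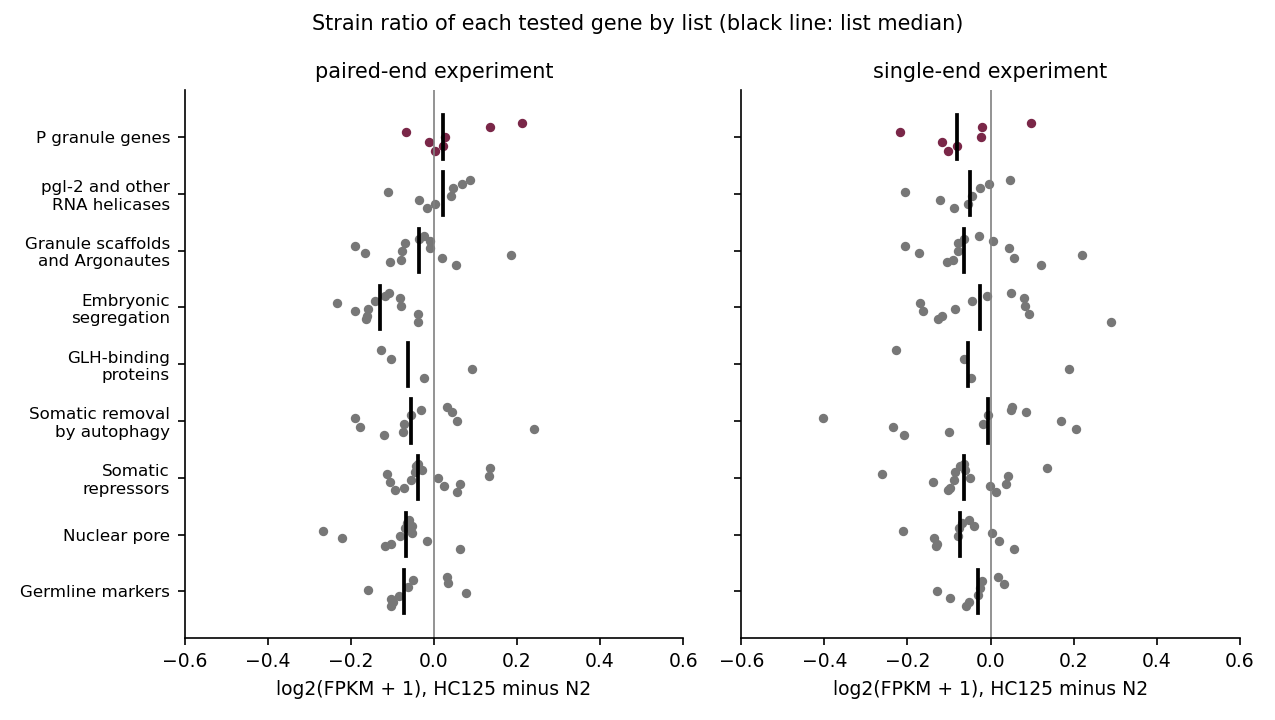
Difference in log2(FPKM + 1), HC125 minus N2, of each tested gene (points) by gene list (rows), with the list's median as a black line, in the paired-end (left) and single-end (right) experiments; the P granule genes are in dark red. Medians lie between -0.13, for embryonic segregation in paired-end libraries, and 0.02, and no gene shown passed a deposited q of 0.05.

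RNA helicases of germ granules and pgl-2 made up a list of 8, with medians of 0.02 and -0.05. cgh-1, a helicase of RNA storage bodies, was the most abundant and measured 1027 FPKM in N2 against 1057 in HC125 (paired-end) and 1388 against 1336 (single-end). vbh-1, another Vasa-related helicase gene, measured 210 FPKM against 217 (paired-end) and 134 against 138 (single-end). cgh-1 stood above glh-1 and vbh-1 below it in all 4 columns.

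Granule scaffolds and Argonautes made up a list of 13, with medians of -0.04 and -0.06. car-1, an RNA-binding protein gene of germline granules, measured 626 FPKM against 634 (paired-end) and 683 against 654 (single-end). wago-1, which encodes an Argonaute of P granules, measured 272 FPKM against 265 (paired-end) and 289 against 250 (single-end). The embryonic segregation list holds 12 genes that act as P granules are sorted to the germ lineage of the embryo. All 12 had a lower value in HC125 in paired-end libraries, with a median of -0.13, but 5 were higher in single-end libraries, with a median of -0.03. pos-1 among them measured 922 FPKM against 856 (paired-end) and 1036 against 1030 (single-end), and spn-4 measured 682 FPKM against 609 (paired-end) and 513 against 542 (single-end).

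The 4 genes of GLH-binding proteins had medians of -0.06 and -0.06. zyx-1, the zyxin gene, measured 71.1 FPKM against 65.0 (paired-end) and 98.4 against 112 (single-end), and csn-5, a COP9 signalosome subunit gene, measured 73.6 FPKM against 78.5 (paired-end) and 90.9 against 87.0 (single-end). Genes for the autophagy that clears PGL granules from somatic cells of the embryo numbered 11 found of 12, with medians of -0.05 and -0.01. lgg-1, an autophagosome protein gene, measured 495 FPKM against 505 (paired-end) and 520 against 485 (single-end), and atg-18 measured 127 FPKM against 122 (paired-end) and 100.2 against 116 (single-end).

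Repressors that keep P granule genes off in the soma made up a list of 15, with medians of -0.04 and -0.06. lin-53, a histone-binding protein gene, measured 205 FPKM against 225 (paired-end) and 327 against 307 (single-end), and the heterochromatin protein gene hpl-2 measured 132 FPKM against 138 (paired-end) and 136 against 132 (single-end). Nuclear pore genes, 12 in number, had medians of -0.07 and -0.07. npp-9 measured 254 FPKM against 251 (paired-end) and 254 against 241 (single-end), and npp-22 measured 149 FPKM against 142.4 (paired-end) and 199.1 against 199.7 (single-end).

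For 3 of the 7 genes the most similar profiles over the 4 pooled values were looked up, by the root-mean-square difference of log2(FPKM + 1). Nearest to pgl-1 were tsn-1, a Tudor nuclease gene (0.06), and the small GTPase gene cdc-42 (0.07). Nearest to glh-1 were C44E4.4 (0.08) and the cyclophilin gene cyn-1 (0.09), and nearest to deps-1 were top-2, a topoisomerase gene (0.04), and R102.5 (0.06). With 4 values that share strains and libraries, this likeness is a description of the pooled values and carries no test.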

How the data were processed

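Polyadenylated RNA of whole young adults was sequenced in 8 libraries, 2 per strain in each of 2 experiments. Per the file headers, each experiment's table is Cuffdiff output in form. Cufflinks 2.2.1 and TopHat2 2.0.1 are listed in the submitters' processing notes, with no settings. The authors pooled FPKM to 1 value per strain. The test statistic, a score per gene, and the p-value and q-value were deposited by the authors too. Depth is unknown, so no counting interval is given.

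The 7 genes and all lists were chosen with earlier results of these data known. Named genes were the 7 members, list genes called in a table and the 2 most abundant of each list, nearest neighbours, nearest profiles and sid-1. npp-11, mex-3, pgl-2, med-1, rme-2, col-19, dpy-7, msp-142, spe-4, spe-11 and spe-26 were named after their values were seen. Symbols of 6 list genes were matched through gene IDs, and 1 (epg-11) was not found.

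Calls use the deposited q of 0.05 or less, adjusted over all tested genes. The implied standard error is the log2 ratio divided by the authors' test statistic, and 95% intervals and z tests use a normal approximation. The added tests, with Benjamini-Hochberg adjustment over all genes, were a Stouffer combination, limma 3.58.1 on the ratios of both tables (pseudocount 1) and a z test between experiments. They were tested on simulated data with 200 changed genes. Python 3.11.15 and scipy 1.17.1 were used. Protein and promoter sequences were not used here.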

Additional observations from a re-analysis of the deposited data

How the results depend on the processing

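No paired analysis was possible because single libraries have no values: the tables hold 1 pooled value per strain and experiment. Pairing was by experiment only, in limma and the inverse-variance mean, and for the same reason no library could be left out. None of the 7 genes was called at an unadjusted p under 0.05, by the Stouffer combination or by limma. None was called either under a q of 0.01, a floor of 1 FPKM in both strains or a minimum ratio of 1.5. Those settings can only remove calls, so with none at a q of 0.05 their count was fixed in advance. The median ratio of the 7 kept its sign under every pseudocount and scaling tried, at 0.02 to 0.10 (log2) for paired-end and -0.08 to -0.04 for single-end libraries. Centring on the median of genes at 1 FPKM or more in either strain (13053 paired-end, 11616 single-end) turned the sign of glh-2 (paired-end, to 0.024), glh-4 (single-end, to 0.0189) and deps-1 (single-end, to 0.0215). Scaling to the summed germline markers, chosen after seeing the data, turned pgl-3 (paired-end, to 0.0133), glh-2 (paired-end, to 0.0704), glh-4 (single-end, to 0.0130) and deps-1 (single-end, to 0.0161). These log2 ratios were small and uncalled throughout. Each column alone kept 18 to 20 of the 21 pairs in the order of the mean. That mean includes the column itself, so part of this likeness is built in, and 17 pairs kept their order in all 4 columns. The difference between experiments was also tested with limma's prior spread, fitted over all genes by level, in place of the implied errors. None of the 7 was called (adjusted p 0.804 to 0.998). That test asks only whether a gene differs more than genes of like level, so it cannot show that the experiments were alike. Errors implied by the deposited p-values, also chosen after seeing the data, were 0.25 to 0.31 (paired-end) and 0.17 to 0.19 (single-end). Those from the test statistic were 0.39 to 0.45 and 0.17 to 0.27.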
